A study of Mus musculus with 6 samples.

Results

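The genes described here lie beside Cyfip1 in the mouse region that corresponds to human 15q11-q13, and the rule that picks them uses position and name, not their values. They are Tubgcp5, Nipa2, Nipa1, Herc2, Atp10a, Ube3a, Snrpn, Ndn, Magel2 and Mkrn3, 10 of the 16593 genes named on the array. They are read by 16 probes, all of which are described, dim ones included. The samples were frontal cortex of male C57BL/6J embryos at embryonic day 15. 3 embryos carried the bacterial artificial chromosome RP24-333C15, which spans Cyfip1, and 3 were wild-type littermates. The transgene was made by injecting the clone into C57BL/6J pronuclei. Which genes other than Cyfip1 the clone carries, how many copies inserted and how many founder lines were used are not stated in the labels. 1 Illumina Mouse ref-8 v2.0 bead array was hybridised per embryo, and 6 arrays limit the precision of every value.

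In the order of the RefSeq genes of assembly GRCm38.p6 on chromosome 7, Tubgcp5 comes before Cyfip1, and Nipa2, Nipa1 and Herc2 follow it. The span of Nipa2 overlaps that of Cyfip1 in this annotation. Further along lie Oca2, Gabrg3 and Gabra5, then Atp10a, Ube3a, Snrpn, Ndn, Magel2 and Mkrn3. The stretch around Cyfip1 is expressed from both parental alleles. Beyond it lies an imprinted domain, in which Snrpn, Ndn, Magel2 and Mkrn3 are expressed from the paternal allele, while neurons use mainly the maternal allele of Ube3a. In humans, loss of the paternal genes is known from Prader-Willi syndrome, loss of maternal UBE3A from Angelman syndrome, and gains of the region from autism.

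No probe carried the name Cyfip1 in the platform annotation, so the transgene itself was not analysed here and the labels were not checked against it. Of 12 cortical marker genes 9 had a probe, and Bcl11b, a transcription factor of deep-layer neurons, stood at a log2 intensity of 11.43 or more in every embryo. Wild-type 2 stood apart: its Tbr1, a cortical neuron factor, was at 7.09 and its Fezf2 at 6.72. In the others these were at 9.09 to 11.16 and 8.69 to 11.19. The mean over the 9 cortical genes was 7.78 in wild-type 2, 8.11 in transgenic 3 and 8.64 to 9.43 in the others. Neurod6, Bcl11b and Lhx2 of that list were lowest in transgenic 3, at 6.90, 11.43 and 8.05, and Lhx2 was at 9.51 in wild-type 2. The mean over 9 midbrain and hindbrain genes was 9.08 in wild-type 2 and 7.49 to 8.56 in the others. Of that list En1, En2, Irx1, Irx2 and Irx3 were highest in wild-type 2, while Gbx2 and Hoxa2 were lowest and Hoxb2 and Pax2 were not raised. En2 was at 12.23 in wild-type 2 and at 10.98 in transgenic 3. Transgenic 3 also had the highest mean over 5 choroid plexus genes, 10.11 against 7.10 to 8.97 in the others. Of these, Aqp1 was highest in transgenic 1 and the dim Kl in wild-type 2. The mean over 5 hypothalamic genes was 8.57 in transgenic 3 and 6.78 to 7.83 in the others. Transgenic 1 stood apart too, with a mean log2 intensity over 9 skeletal muscle genes of 10.05, against 8.64 in wild-type 3 and 7.06 to 7.15 in the others. The mean over 8 neuronal genes was 10.57 in transgenic 1 and 11.04 to 11.38 in the others. In bulk tissue, fewer cells of a type and less RNA per cell cannot be told apart.

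The contrast asks whether genes flanking the transgene's target differ between transgenic and wild-type cortex. 0 of the 16 probes passed the limma test at an adjusted p under 0.05 over all 25697 probes. The background was 0%, since no probe of the array passed, and the smallest adjusted p of any probe was 0.299. 1 of the 16, the Herc2 probe, had an unadjusted p under 0.05. It lay lower, as did 3.42% of all probes at that p, and 6.34%, or 1629, did so in either direction, so the share among these genes was near the background. By the probe of highest mean, 8 of the 10 genes lay lower in transgenic embryos and 2 higher, with a median difference of -0.17, beside a median of -0.01 over all probes. That lean came with transgenic 1. Without it, 3 of the 10 genes lay lower and 7 higher, with a median of 0.02. A p that misses the threshold does not show that groups were alike, and the 95% intervals from the limma fit are given with each gene.

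**Figure D1:**
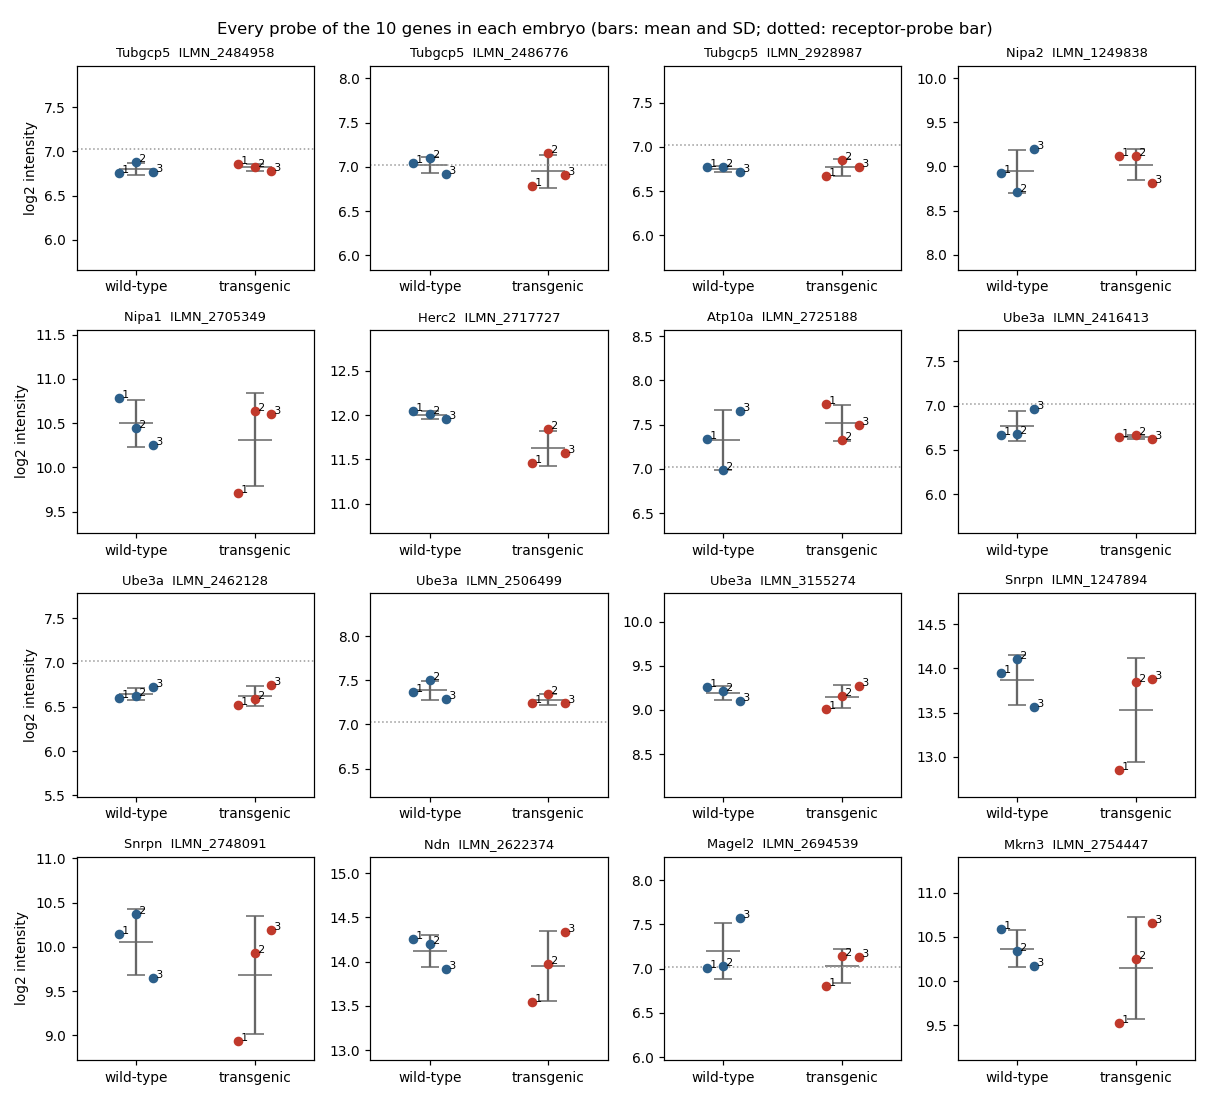
Each panel plots 1 probe, with log2 intensity on the vertical axis over the same span of values, wild-type embryos in blue and transgenic embryos in red, numbered by replicate; grey bars give the mean and SD of 3 embryos and the dotted line the receptor-probe bar at 7.02. The groups overlap in every panel except that of Herc2. Transgenic 1 is the lowest point for Nipa1, Herc2, Snrpn, Ndn, Magel2 and Mkrn3, and for some probes of Tubgcp5 and Ube3a.

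Whether a probe was readable at all was judged against 1303 probes of olfactory and vomeronasal receptors, genes of sensory neurons in the nose. The 95th percentile of their mean log2 intensity was 7.02, and a probe at or under it is called dim. 11 of the 16 probes, for 9 of the 10 genes, lay above this bar and 5 were dim. The dim ones are all 3 probes of Tubgcp5 and 2 of the 4 of Ube3a. A difference read by a dim probe is open to compression towards 0.

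Tubgcp5 encodes a subunit of the gamma-tubulin ring complex, from which microtubules grow, and is the immediate neighbour of Cyfip1 on one side. Probe ILMN_2486776, the brightest of its probes, read 6.79, 7.15 and 6.91 in transgenic embryos 1, 2 and 3, and 7.04, 7.10 and 6.92 in wild-type embryos 1, 2 and 3 (log2 intensity, here and below in this order). The groups overlapped, and the difference was -0.07 (95% interval -0.34 to 0.20). The other probes, ILMN_2484958 and ILMN_2928987, lay between 6.67 and 6.88 in all 6 embryos and differed by 0.02 and 0.01. At this brightness a difference in Tubgcp5 was not measurable, and all 3 signs turned in at least 1 alternative.

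Nipa2 and Nipa1 encode related magnesium transporters, and human NIPA1 is mutated in a hereditary spastic paraplegia. Nipa2, whose span overlaps that of Cyfip1, read 9.12, 9.12 and 8.82 in transgenic and 8.92, 8.71 and 9.20 in wild-type embryos. The highest and the lowest of the 6 values both came from wild-type embryos, and the groups overlapped. The difference was 0.07 (SE 0.15), a 1.05-fold level with a 95% interval of 0.821- to 1.35-fold (limma adjusted p = 0.931).

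Nipa1 read 9.71, 10.63 and 10.60 in transgenic and 10.79, 10.45 and 10.25 in wild-type embryos. Transgenic 1 was lowest, and the other transgenic embryos lay inside the wild-type range. The difference was -0.18 (SE 0.27), a 0.881-fold level with a 95% interval of 0.557- to 1.39-fold (limma adjusted p = 0.906). Without transgenic 1 it was 0.12, and among the 4 embryos numbered over 200 in the labels it was -0.00031. The Nipa1 probe thus gave an interval wider than that of Nipa2, on both sides of 0.

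Herc2 encodes a very large HECT-type ubiquitin ligase that takes part in DNA repair and binds the protein product of Ube3a. Its probe, ILMN_2717727, read 11.46, 11.84 and 11.57 in transgenic and 12.05, 12.01 and 11.96 in wild-type embryos. All 3 transgenic values lay below all 3 wild-type values, which was true in this direction of 6.9% of all probes, and of 8.25% of the 12848 probes above the median intensity. Herc2 was the one gene of the 10 whose groups did not overlap. Its level was 0.767-fold that of wild-type, with a 95% interval of 0.640- to 0.921-fold, a log2 difference of -0.38 (SE 0.11). It did not pass (limma adjusted p = 0.759).

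Means of the microglial and the meningeal marker lists separated the groups as well, while the groups overlapped in the means of all other lists. The mean log2 intensity over 6 microglial and macrophage genes was 8.48, 8.74 and 8.65 in transgenic and 8.29, 7.73 and 7.73 in wild-type embryos. That over 8 genes of meninges and fibroblasts was 10.92, 9.12 and 9.35 against 9.09, 7.95 and 7.86. All transgenic means lay above all wild-type means in both lists, in the second by a narrow gap of 9.12 against 9.09. Taken singly, C1qa and C1qc of the first list and Col1a1, Col1a2, Lum, Dcn and Foxc1 of the second overlapped. Endothelial means overlapped narrowly, with transgenic 2 at 8.739 and wild-type 1 at 8.743. Emcn, Eng and Egfl7 of that list did not overlap, while Pecam1 and the dim Kdr did. Neuronal Dcx, a microtubule-binding protein of young neurons, read 12.44, 12.93 and 12.76 in transgenic and 13.14, 12.97 and 13.11 in wild-type embryos. It was lower without overlap, as were 6.9% of all probes (limma adjusted p = 0.759). Every other neuronal gene of the list overlapped, most with a lower transgenic mean, while Rbfox3 and Snap25 differed by 0.01 and 0.06. The part of tissue content in the Herc2 value was not tested.

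The sign of the Herc2 difference held in all 15 alternatives, between -0.49 and -0.30. The groups stayed apart in 14 of them, and the unadjusted p stayed under 0.05 in 13, the exceptions being median scaling and the fit without transgenic 1 and wild-type 2. Under median scaling of the arrays, transgenic 2 lay above wild-type 3, which stood at 11.82. The difference was -0.30 without transgenic 1, the embryo bright for muscle genes, and -0.32 among the 4 embryos numbered over 200, while transgenic 1 minus wild-type 3, the pair numbered under 100, gave -0.50. The labels do not say what the animal numbers mean. Other members of the HERC family with a probe, Herc3 and Herc4, differed by -0.09 and -0.10.

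**Figure D2:**
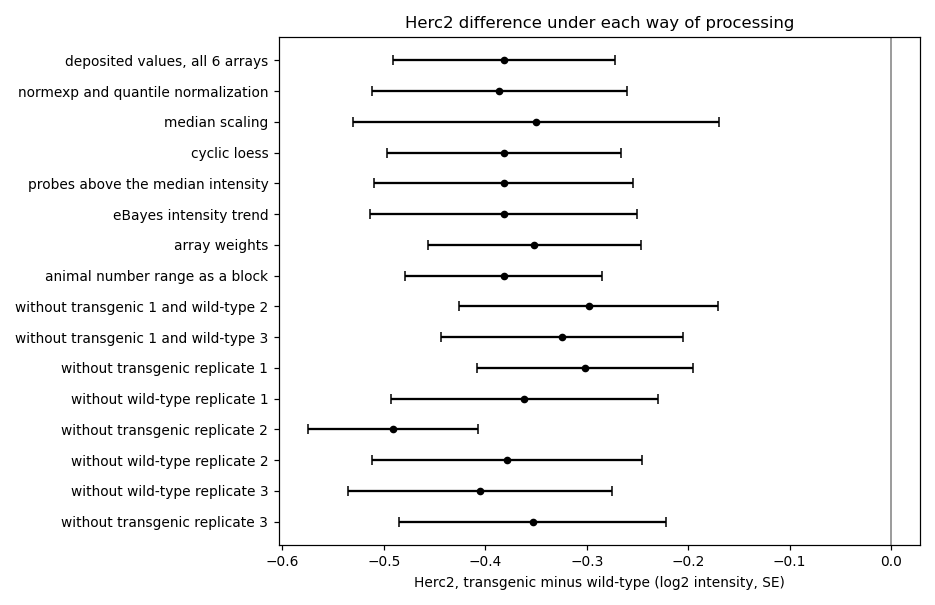
Log2 difference of Herc2, transgenic minus wild-type, under each way of processing or sample left out; points are estimates and bars are standard errors of the limma fit. Every point lies below 0, from -0.49 without transgenic 2 to -0.30 without transgenic 1 and wild-type 2.

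The sequence at the start of Herc2 is shown because it is the gene whose groups did not overlap. All 10 genes had an entry in the RefSeq promoter table (GRCm38.p6), 14 entries of 300 bases in all, each from 250 bases before to 50 after an annotated start. Herc2 has 2 entries, and the one that starts further upstream is printed, 5′ to 3′, with CCAAT on either strand in capitals, a box bound by NF-Y.
Herc2 promoter, chr7:56049905-56050204 (+ strand, GRCm38.p6): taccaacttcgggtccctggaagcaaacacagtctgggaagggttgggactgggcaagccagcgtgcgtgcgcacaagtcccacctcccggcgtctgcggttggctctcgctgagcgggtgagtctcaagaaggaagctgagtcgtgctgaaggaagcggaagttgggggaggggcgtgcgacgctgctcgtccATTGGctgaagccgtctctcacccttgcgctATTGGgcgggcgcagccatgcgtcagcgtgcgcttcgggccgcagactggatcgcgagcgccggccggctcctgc
This window holds 29 CpG dinucleotides, against a median of 7 over all 32851 promoter entries, and 2 CCAAT boxes. CCAAT or its reverse ATTGG is in 37.4% of all entries, so its presence here is common. The other Herc2 entry holds 38 CpG and 0 CCAAT boxes.

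Ube3a encodes the ubiquitin ligase lost in Angelman syndrome. Its brightest probe, ILMN_3155274, read 9.01, 9.16 and 9.27 in transgenic and 9.26, 9.21 and 9.10 in wild-type embryos. The groups overlapped, and the difference was -0.04 (SE 0.09), a 0.970-fold level with a 95% interval of 0.832- to 1.13-fold (limma adjusted p = 0.934). Its sign turned under median scaling, under cyclic loess, without transgenic 1 and without transgenic 1 and wild-type 2. Among the brightest probes of the 9 genes above the bar, this interval was the narrowest.

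The second readable Ube3a probe, ILMN_2506499, read 7.25, 7.35 and 7.25 in transgenic and 7.37, 7.50 and 7.29 in wild-type embryos, a difference of -0.11 (SE 0.08). The dim probes ILMN_2416413 and ILMN_2462128 lay between 6.53 and 6.96 in all embryos and differed by -0.13 and -0.03. The first of these was -0.031 without wild-type 3, which read 6.96 against 6.62 to 6.68 elsewhere. All 4 probes gave a slightly lower transgenic mean, and none of the 4 passed.

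Atp10a encodes a P4-type ATPase that moves phospholipids across the membrane. It read 7.73, 7.32 and 7.50 in transgenic and 7.34, 6.99 and 7.66 in wild-type embryos. The values of transgenic 2 and wild-type 1 were near each other, wild-type 2 was lowest and fell under the bar, and the groups overlapped. The difference was 0.19 (SE 0.19), and it was -0.09 without transgenic 1 and wild-type 2. That fit kept transgenic 3, which had the highest choroid plexus and hypothalamic list means. Wild-type 2, in which cortical Tbr1 was near the bar and Fezf2 under it, was also the lowest of the 6 for Nipa2. The part of tissue content in this was not tested.

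Snrpn, Ndn, Magel2 and Mkrn3 are the paternally expressed members. Snrpn encodes SmN, the form of a core spliceosome protein found in brain, and its promoter region holds the imprinting centre of the domain. Probe ILMN_1247894 read 12.86, 13.85 and 13.88 in transgenic and 13.94, 14.10 and 13.56 in wild-type embryos. Transgenic 1 lay below all others, while the other transgenic embryos lay within the wild-type range. On the scanner's linear scale, before normalization, this probe read 6138 in transgenic 1 and 10304 to 18486 in the other 5.

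The second Snrpn probe, ILMN_2748091, read 8.93, 9.93 and 10.19 in transgenic and 10.14, 10.38 and 9.65 in wild-type embryos. Both probes thus placed transgenic 1 lowest, wild-type 3 next and wild-type 2 highest. Their differences were -0.34 (SE 0.30) and -0.37 (SE 0.35), neither past the threshold (limma adjusted p = 0.830 and 0.840). Without transgenic 1 they were -0.0042 and 0.00040. Snrpn shares its transcript with Snurf, which had no probe of its own here, so the probes cannot separate the pair.

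Ndn encodes necdin, a MAGE family protein abundant in neurons. It read 13.54, 13.97 and 14.34 in transgenic and 14.26, 14.20 and 13.92 in wild-type embryos. The lowest value was that of transgenic 1 and the highest that of transgenic 3. The difference was -0.17 (SE 0.21), a 0.886-fold level with a 95% interval of 0.627- to 1.25-fold (limma adjusted p = 0.878), and it was 0.03 without transgenic 1.

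Mkrn3 encodes a makorin RING finger protein known in humans for its mutation in early puberty. It read 9.52, 10.25 and 10.66 in transgenic and 10.59, 10.34 and 10.17 in wild-type embryos. As for Ndn, the lowest and the highest value both came from transgenic embryos, 1 and 3. The difference was -0.22 (SE 0.29; limma adjusted p = 0.888) and 0.09 without transgenic 1.

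Magel2, another MAGE family gene, encodes a partner of a ubiquitin ligase that acts in endosomal recycling. It read 6.81, 7.15 and 7.13 in transgenic and 7.01, 7.03 and 7.57 in wild-type embryos, a difference of -0.18 (SE 0.18). Values of transgenic 1 and wild-type 1 lay under the bar, and wild-type 3 stood highest. The difference was 0.0083 without wild-type 3 and -0.065 without transgenic 1, so its size depended on single embryos.

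**Figure D3:**
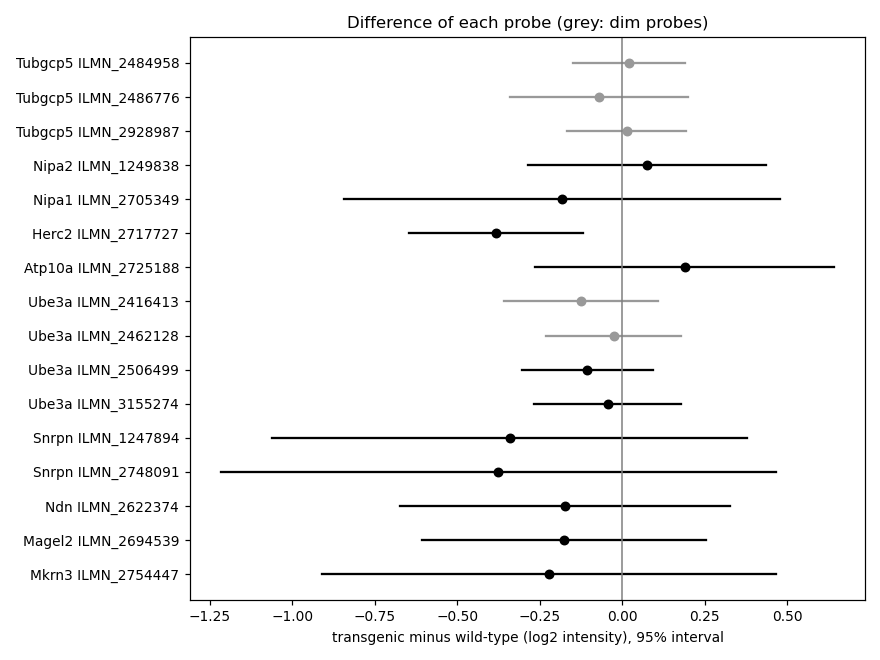
Log2 difference, transgenic minus wild-type, for each of the 16 probes, with 95% intervals from the limma fit; grey marks dim probes. The Herc2 interval, -0.64 to -0.12, is the one that does not reach 0, and the widest intervals are those of the 2 Snrpn probes.

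Nipa1, Snrpn, Ndn and Mkrn3 shared a course over the 6 embryos. After each probe was centred on its own mean, transgenic 1 stood at -0.70 for Nipa1, -0.84 for Snrpn, -0.50 for Ndn and -0.73 for Mkrn3. Wild-type 3 came next to lowest in all 4, at -0.15 to -0.09. The brightest Ube3a probe had the same 2 embryos lowest, at -0.16 and -0.07, over a narrower range of 0.26. Transgenic 1 was the lowest embryo for 7 of the 9 genes with a readable probe, and wild-type 2 for the other 2. Among all probes above the median intensity, 32.4% were lowest in transgenic 1.

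The 2 embryos with low values of these genes were those bright for muscle genes. The epidermal list mean was 9.41 in transgenic 1, 8.23 in wild-type 3 and 7.53 to 7.57 in the others. Of the 8 neuronal genes, transgenic 1 was the lowest embryo for 5, among them Gap43, a growth cone protein, at 11.44 against 12.44 to 12.83 in the others. The exceptions were Rbfox3, lowest in wild-type 3 at 11.06, Map2, lowest in wild-type 2 at 12.95, and the dim Snap25, highest in transgenic 1. Cortical Tbr1 and Bcl11b were also highest in transgenic 1, at 11.16 and 12.47. The part of tissue content in the values of Nipa1, Snrpn, Ndn and Mkrn3 was not tested.

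**Figure D4:**
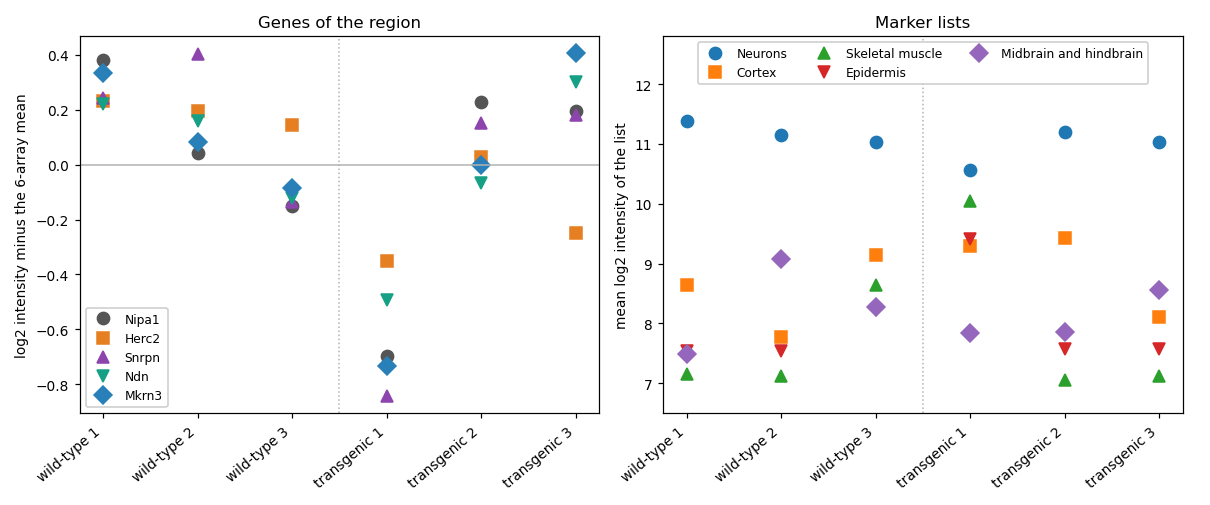
Left, log2 intensity of 5 genes minus each probe's 6-array mean; right, mean log2 intensity of 5 marker lists, both by embryo with wild-type left of the dotted line. Transgenic 1 is lowest for all 5 genes and for the neuronal list and highest for the muscle and epidermal lists.

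The genes with the most similar courses were found by the mean absolute difference of centred values over the 6 arrays, for the 3 members with the widest range. For Snrpn, range 1.25, these were Bbc3 at 0.032 and Tbc1d9 at 0.044. For Mkrn3, range 1.14, they were Bex2 at 0.040 and F8a at 0.048, and for Nipa1, range 1.08, Cxadr at 0.051 and another probe of Bex2 at 0.056. Among the members, the closest pairs were Nipa1 with Mkrn3 and Ndn with Mkrn3, both at 0.105. Ube3a with Ndn, at 0.149, was closer than Nipa1 with Ndn, Snrpn with Mkrn3 and Snrpn with Ndn, at 0.152 to 0.161.

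Promoter sequences of Nipa1, Snrpn, Ndn and Mkrn3 are given because their values ran in parallel over the embryos. This course was not theirs alone, since Ube3a had the same 2 embryos lowest. Capitals mark CGCATGCG, the palindromic core of the site bound by NRF1, CCGGAAGT, an ETS site, and CCAAT, each on either strand. AAGATGGCG, a YY1 site, was searched as well. These motifs were picked after the sequences had been read.
Nipa1 promoter, chr7:56019551-56019850 (- strand, GRCm38.p6): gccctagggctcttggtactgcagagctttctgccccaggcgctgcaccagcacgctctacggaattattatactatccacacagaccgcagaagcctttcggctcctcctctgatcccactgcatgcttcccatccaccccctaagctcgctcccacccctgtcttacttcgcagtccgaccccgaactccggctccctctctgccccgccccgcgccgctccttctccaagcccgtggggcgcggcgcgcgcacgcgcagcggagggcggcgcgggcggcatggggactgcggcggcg
Snrpn promoter, chr7:60005150-60005449 (- strand, GRCm38.p6): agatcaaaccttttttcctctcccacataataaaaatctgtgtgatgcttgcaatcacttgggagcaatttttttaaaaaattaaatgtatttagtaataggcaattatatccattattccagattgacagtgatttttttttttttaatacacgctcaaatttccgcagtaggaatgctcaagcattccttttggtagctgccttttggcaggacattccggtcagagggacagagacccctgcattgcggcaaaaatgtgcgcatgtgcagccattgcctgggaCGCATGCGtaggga
Ndn promoter, chr7:62348027-62348326 (+ strand, GRCm38.p6): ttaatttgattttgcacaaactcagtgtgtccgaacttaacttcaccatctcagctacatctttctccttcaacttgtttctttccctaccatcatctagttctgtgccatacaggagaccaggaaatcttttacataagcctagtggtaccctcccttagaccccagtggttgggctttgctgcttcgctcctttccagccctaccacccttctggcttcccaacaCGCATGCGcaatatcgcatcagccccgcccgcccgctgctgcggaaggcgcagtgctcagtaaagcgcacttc
Mkrn3 promoter, chr7:62420104-62420403 (- strand, GRCm38.p6): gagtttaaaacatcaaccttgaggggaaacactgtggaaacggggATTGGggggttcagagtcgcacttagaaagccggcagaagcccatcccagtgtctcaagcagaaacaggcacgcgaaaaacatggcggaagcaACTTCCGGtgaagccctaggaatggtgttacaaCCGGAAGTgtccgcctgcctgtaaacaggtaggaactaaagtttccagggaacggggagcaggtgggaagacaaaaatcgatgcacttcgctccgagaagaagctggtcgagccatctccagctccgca
CGCATGCG is in the Snrpn and Ndn windows, in 2 of the 10 genes, and in 1.87% of all entries. The windows of all 4 annotated Snrpn starts hold it. Those other than the printed one share long stretches of sequence, so they are not separate observations. CCGGAAGT occurs 2 times in the Mkrn3 window and in 3.89% of all entries. The Nipa1 window holds none of the 4 motifs but has 30 CpG, against 7 in that of Snrpn, 11 in Ndn and 15 in Mkrn3, so the 4 windows have no searched motif in common. AAGATGGCG is in the Ube3a window and in 1.40% of all entries. In the printed windows no capital stretch of one motif overlaps that of another.

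Of 19 other genes in the human 15q region or beside it, 12 had a probe and 5 were above the bar. By the brightest probe 7 lay higher in transgenic embryos and 5 lower, with a median difference of 0.01, and under median scaling the split turned to 4 higher and 8 lower. 0 passed the adjusted limma test, and 2 had an unadjusted p under 0.05 by that probe, both higher, against 2.91% of all probes in that direction. Less bright probes of Apba2, lower, and Arhgap11a, higher, also had an unadjusted p under 0.05. Oca2, Gabrg3, Gabra5 and Peg12, which share the stretch with the 10 genes, were all dim and differed by -0.08 to 0.11.

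The 2 with an unadjusted limma p under 0.05 by the brightest probe were Klf13 and Tjp1. Both come after Mkrn3 and Peg12 in the order of the RefSeq genes on mouse chromosome 7. Klf13, a Krüppel-like transcription factor, read 10.12, 9.98 and 9.78 in transgenic and 9.77, 9.57 and 9.25 in wild-type embryos. The groups did not overlap, by a small gap, as for 5.39% of all probes in that direction, and the difference was 0.43 (SE 0.15; limma adjusted p = 0.759). Tjp1, a scaffold of tight junctions, read 8.47, 8.41 and 8.54 against 8.30, 8.28 and 8.09, again without overlap. Its difference was 0.25 (SE 0.08; limma adjusted p = 0.759). The mean over 5 endothelial genes, of cells rich in tight junctions, was 8.74 to 9.25 in transgenic and 8.36 to 8.74 in wild-type embryos, and its part in the Tjp1 value was not tested. Apba2, an adaptor protein of neurons, was singled out after its values were seen. Its brightest probe differed by -0.32 (SE 0.19), with overlap. Its other probe, ILMN_1244923, read 8.71, 9.36 and 8.85 in transgenic and 9.53, 9.50 and 9.69 in wild-type embryos, without overlap, a difference of -0.60 (SE 0.17; limma adjusted p = 0.759). The less bright Arhgap11a probe, ILMN_1229328, was dim and differed by 0.19 (SE 0.07), and that gene lies on mouse chromosome 2.

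Relatives of the 10 genes lay on both sides of 0. Of 33 relatives listed, 26 had a probe, 14 higher and 12 lower, with a median of 0.05 and 0 past the adjusted limma threshold. Of the spliceosome's Sm proteins, 5 of 6 lay higher with a median of 0.15, and 5 of 6 did under each scaling tried. The remaining gene, Snrpe, was dim. Without transgenic 1 the median was 0.066, with 6 of 6 higher. Snrpb, the close paralogue of Snrpn, was singled out after its values were seen. It read 12.35, 12.17 and 12.16 in transgenic and 11.88, 11.95 and 12.02 in wild-type embryos, a difference of 0.27 (SE 0.08; limma adjusted p = 0.759), with transgenic 1 highest where Snrpn was lowest. The gamma-tubulin complex, partners of Tubgcp5, had 5 of 8 genes higher and a median of 0.08, and MAGE family genes 1 of 4 higher and a median of -0.20, which was 0.0033 without transgenic 1. Cyfip2, the paralogue of Cyfip1, had 1 dim probe that differed by 0.15 (SE 0.07).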

How the data were processed

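RNA of 6 embryonic cortices (200 ng each, per the labels' protocols) was hybridised to 1 bead array each, on 1 slide. The deposited scanner table holds linear intensity values per probe, made with BeadStudio per the submitters' processing notes, with no version. Median intensity ranged from 130.3 to 178.5. The deposited log2 values matched a quantile normalization of that table, taken on the log2 scale with no background step, to within 5e-09. Every array has a median of 7.18.

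These log2 values were tested with limma 3.58.1 in R 4.3.3 (lmFit and eBayes, two-sided, no covariate, no intensity filter), adjusted by Benjamini-Hochberg over all 25697 probes, threshold 0.05, after a trial on simulated data. An exact permutation test of 3 against 3 cannot go below 0.1 and was not used. P-values measure the spread between embryos as labelled. The platform annotation names 23978 probes with 1 gene, 0 with several and 1719 with none, and 0 symbols changed on matching to RefSeq, which gave no gene coordinates for the arrays, only names and order.

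All probes of the 10 genes are named; of other genes of the region, those at an unadjusted p under 0.05; relatives by counts. A gene with several probes is represented by the one of highest mean. Members and lists were chosen with earlier results of these data known. Alternatives were normexp (offset 50), median scaling, cyclic loess, an intensity filter, an intensity trend, array weights, a block on animal number range, and samples left out.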

Additional observations from a re-analysis of the deposited data

How the results depend on the processing

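Of 16 probes of the 10 genes, Herc2 and the Ube3a probes ILMN_2416413 and ILMN_2506499 kept their sign in all alternatives run, and 33 of the 234 values of all 16 probes turned. No call was gained or lost among them: the adjusted limma p of Herc2 was 0.304 with a block on animal number range and up to 0.999 elsewhere. With that block both Snrpn probes also had an unadjusted p under 0.05 (0.0371 and 0.0388, adjusted 0.396 and 0.399). The cause of the turns was not tested. Differences, transgenic minus wild-type, that turned were -0.048 (Tubgcp5 ILMN_2484958), -0.052 (Tubgcp5 ILMN_2928987), 0.050 (Ube3a ILMN_3155274) under median scaling; 0.00096 (Ube3a ILMN_3155274) under cyclic loess; -0.0018 (Tubgcp5 ILMN_2484958), 0.019 (Ube3a ILMN_2462128) with array weights; 0.052 (Tubgcp5 ILMN_2486776), -0.093 (Nipa2), 0.095 (Nipa1), -0.086 (Atp10a), 0.0083 (Ube3a ILMN_2462128), 0.034 (Ube3a ILMN_3155274), 0.11 (Snrpn ILMN_1247894), 0.16 (Snrpn ILMN_2748091), 0.067 (Ndn), 0.078 (Mkrn3) without transgenic 1 and wild-type 2; and -0.018 (Tubgcp5 ILMN_2484958), 0.062 (Ube3a ILMN_2462128), 0.12 (Magel2) without transgenic 1 and wild-type 3. With 1 embryo left out at a time, those that turned ranged over -0.0037 to 0.059 (Tubgcp5 ILMN_2484958), -0.17 to 0.010 (Tubgcp5 ILMN_2486776), -0.031 to 0.062 (Tubgcp5 ILMN_2928987), -0.041 to 0.20 (Nipa2), -0.34 to 0.12 (Nipa1), -0.087 to 0.023 (Ube3a ILMN_2462128), -0.11 to 0.024 (Ube3a ILMN_3155274), -0.63 to 0.00040 (Snrpn ILMN_2748091), -0.37 to 0.030 (Ndn), -0.27 to 0.0083 (Magel2), -0.48 to 0.091 (Mkrn3).

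Over all probes, 0 passed the adjusted threshold, and 1, Ifitm3, without wild-type 1, a range of 0 to 1. At an unadjusted p under 0.05 there were 1629, against 897 with the intensity filter, which tests fewer probes, 3097 with a block on animal number range, 898 without transgenic 1 and wild-type 2, and 1005 to 1959 with 1 embryo left out, the lowest without wild-type 2. The split of 749 higher and 880 lower was 1137 and 701 under median scaling and 861 and 684 under cyclic loess. It was 865 and 749 with the intensity trend and 1006 and 953 without transgenic 2. Of the other genes of the region, 4 were higher and 8 lower under median scaling, 2 and 3 with the intensity filter, and 5 to 8 higher and 4 to 7 lower with 1 embryo left out. The labels give no replicate numbers, and those used here only count the samples within each group. No pairing of embryos was given, so no paired analysis was run.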
